A study of Homo sapiens with 29 samples.

Results

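The genes described here are 10 components and targets of the NF-κB pathway. They include the transcription factor subunits NFKB1, NFKB2, RELA and RELB, the inhibitors NFKBIA and NFKBIE, and the ubiquitin-editing enzyme TNFAIP3. The others are the ubiquitin ligase BIRC3, the signalling adaptor TRAF1 and the cytokine IL32. This set was taken by gene symbol from the deposited read counts, in which each symbol named 1 row. It makes up 10 of 60675 listed genes. The set was chosen with earlier results of these data known. Counts of its genes beside the share of all tested genes are therefore descriptions. All 10 passed the filter on low counts, among 20494 genes tested.

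NF-κB proteins act as dimers that IκB inhibitors hold in the cytoplasm. In the canonical branch, receptor signals lead to phosphorylation and loss of IκBα, the product of NFKBIA, which frees dimers such as p50 (from NFKB1) with RELA. In the non-canonical branch the kinase NIK, encoded by MAP3K14, drives processing of the NFKB2 product p100 to p52, which pairs with RELB. Many regulators of the pathway, among them NFKBIA, NFKBIE, TNFAIP3 and BIRC3, are themselves NF-κB target genes. In melanoma the pathway is known for inflammatory and survival gene expression. RNA levels of these genes do not measure the activity of the factors, which is largely set by protein location and degradation.

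The libraries came from WM239A, a metastatic melanoma cell line, and polyadenylated RNA was measured in bulk. One group carried a vector only and had no drug (called vector cells). All other groups overexpressed BRAF-V600E, the activated form of the kinase that LGX818 (encorafenib) inhibits, and were untreated or received LGX818 at 500 nM. They were sampled without drug (called untreated), after 20 hours, after 7 days (week 1), and after 14, 21 or 28 days of continuous drug (weeks 2, 3 and 4 continuous). The intermittent arm was sampled after 7 days of drug and 7 days of DMSO (week 2 off drug), after another 7 days of drug (week 3 back on drug), and after another 7 days of DMSO (week 4 off drug). Each group had 3 libraries, except week 4 continuous with 2, and the labels do not say whether libraries came from separate cultures, so p-values measure only the spread between these libraries. The labels also do not say whether the overexpressing cells were 1 clone or a pool.

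Library totals ranged from 22.9 to 35.8 M counts. BRAF rose from 40.2 CPM (counts scaled to library size in the usual unit of that name) in vector cells to 895 CPM in untreated overexpressing cells, and stood at 3232 CPM at week 2 off drug and 3404 CPM at week 4 off drug, above the 700 to 1082 CPM of the groups on drug. DUSP6, a target of ERK signalling, was at 421 CPM untreated, 11.0 CPM at 20 hours, 658 ± 18 CPM (SD, n = 3) at week 2 off drug and 109 ± 7.75 CPM (n = 3) in the week 3 intermittent libraries. The table's column names call those week 3 libraries off drug and the sample labels call them on drug; the labels were followed. Libraries of 4 groups stood apart from both others of their group over all genes: week 2 continuous replicate 3, week 2 off drug replicate 3, week 3 continuous replicate 1 and week 3 back on drug replicate 1. All 8 melanocyte lineage markers were at 1 CPM or more in every group, but their summed level moved with drug. It was 2376 to 2492 CPM untreated, 8085 to 8240 CPM at 20 hours, 827 to 894 CPM at week 1, 324 to 369 CPM at week 2 continuous, 721 to 729 CPM at week 2 off drug and 1355 to 1676 CPM at week 4 off drug. S100A1, 1 of the 8, went from 8.22 CPM untreated to 119 CPM at week 2 off drug and 479 CPM at week 4 off drug. PMEL was at 647, 39.8 and 151 CPM in the same groups. At week 2 off drug 1 of the 8 was higher than untreated and 7 lower, where 31.2% and 28.8% of all tested genes were. The part of these markers in the results was not tested.

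Promoter sequences were looked up first, because several of the genes are known targets of the factors they encode. The RefSeq table (GRCh38.p14, 250 bases before to 50 bases after each transcription start) held 15 windows for 8 of the 10 genes, and none for RELB and NFKBIE. The 10-base κB consensus was searched on both strands. It was present in 7 of those 15 windows, against 3956 of 35116 windows of the same length over all genes (11.3%). Counted once per gene, 6 of 8 members with a window held a match, against 2054 of 11857 tested genes (17.3%). The windows printed here are shown because they hold a match, with 1 window for each of 5 of those 6 genes. Capitals mark κB consensus matches, and each sequence runs 5′ to 3′ on the gene's strand, with 250 bases before the transcription start.
NFKB2: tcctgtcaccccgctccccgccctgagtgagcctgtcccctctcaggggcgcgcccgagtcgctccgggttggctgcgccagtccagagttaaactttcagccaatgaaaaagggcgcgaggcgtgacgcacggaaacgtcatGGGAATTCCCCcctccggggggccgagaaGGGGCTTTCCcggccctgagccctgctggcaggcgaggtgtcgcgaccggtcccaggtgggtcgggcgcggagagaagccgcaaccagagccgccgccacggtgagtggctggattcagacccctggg
NFKBIA: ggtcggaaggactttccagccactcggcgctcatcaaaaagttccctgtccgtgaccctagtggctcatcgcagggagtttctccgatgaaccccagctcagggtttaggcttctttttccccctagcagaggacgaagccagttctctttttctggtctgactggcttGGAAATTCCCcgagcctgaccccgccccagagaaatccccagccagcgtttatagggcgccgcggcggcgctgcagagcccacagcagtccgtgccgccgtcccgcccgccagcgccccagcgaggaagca
TNFAIP3: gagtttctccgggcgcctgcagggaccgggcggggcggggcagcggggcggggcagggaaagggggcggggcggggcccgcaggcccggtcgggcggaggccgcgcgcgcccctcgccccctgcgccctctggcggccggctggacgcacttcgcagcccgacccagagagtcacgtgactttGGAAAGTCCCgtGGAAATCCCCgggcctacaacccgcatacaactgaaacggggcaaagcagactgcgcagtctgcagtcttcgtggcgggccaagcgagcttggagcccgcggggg
BIRC3: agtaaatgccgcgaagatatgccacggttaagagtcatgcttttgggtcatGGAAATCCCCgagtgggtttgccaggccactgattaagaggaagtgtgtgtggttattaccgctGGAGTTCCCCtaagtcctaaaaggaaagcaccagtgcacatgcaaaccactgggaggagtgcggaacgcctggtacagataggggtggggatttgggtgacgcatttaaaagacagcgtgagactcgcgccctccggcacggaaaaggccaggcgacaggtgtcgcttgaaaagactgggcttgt
IL32: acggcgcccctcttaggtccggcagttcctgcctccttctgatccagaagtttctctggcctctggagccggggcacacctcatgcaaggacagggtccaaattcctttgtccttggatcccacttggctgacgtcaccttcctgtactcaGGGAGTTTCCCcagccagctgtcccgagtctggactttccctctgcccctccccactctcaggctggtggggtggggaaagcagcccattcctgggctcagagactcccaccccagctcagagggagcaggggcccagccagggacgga
The NFKB2 window lies at chr10:102394328-102394627 on the plus strand, the NFKBIA window at chr14:35404700-35404999 on the minus strand, and the TNFAIP3 window at chr6:137867009-137867308 on the plus strand. The BIRC3 window lies at chr11:102317234-102317533 and the IL32 window at chr16:3065153-3065452, both on the plus strand. NFKB2 held 3 match positions here, of which 2 overlap by all but 1 base, and 2 more in a neighbouring window. NFKBIA held 1 match, 81 to 72 bases before the start, and the pair in TNFAIP3 began 67 and 55 bases before it. BIRC3 held a pair that began 199 and 135 bases before the start, and in IL32 a pair of overlapping matches began 99 and 98 bases before it. The first NFKB1 window also held 1 match, 49 to 40 bases before the start. No match was found in the 2 RELA windows or the 3 TRAF1 windows. A match is a description of the letters in these windows and does not show binding.

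Set per kilobase of exon (FPKM, with exon lengths from GENCODE 29), the 10 genes differed widely in level. In untreated cells NFKB1 (12.5 FPKM) and RELA (12.6 FPKM) were the most abundant, followed by NFKBIE at 7.04 FPKM, NFKBIA at 5.50 FPKM and TRAF1 at 4.32 FPKM. NFKB2 stood at 3.16, RELB at 2.67 and TNFAIP3 at 2.28 FPKM, while BIRC3 was at 0.145 FPKM and IL32 at 0.00393 FPKM. By week 4 off drug, TRAF1 had the highest level of the 10 genes at 19.0 FPKM, above RELA at 16.9 FPKM. The order of the genes by level thus differed between groups.

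**Figure D1:**
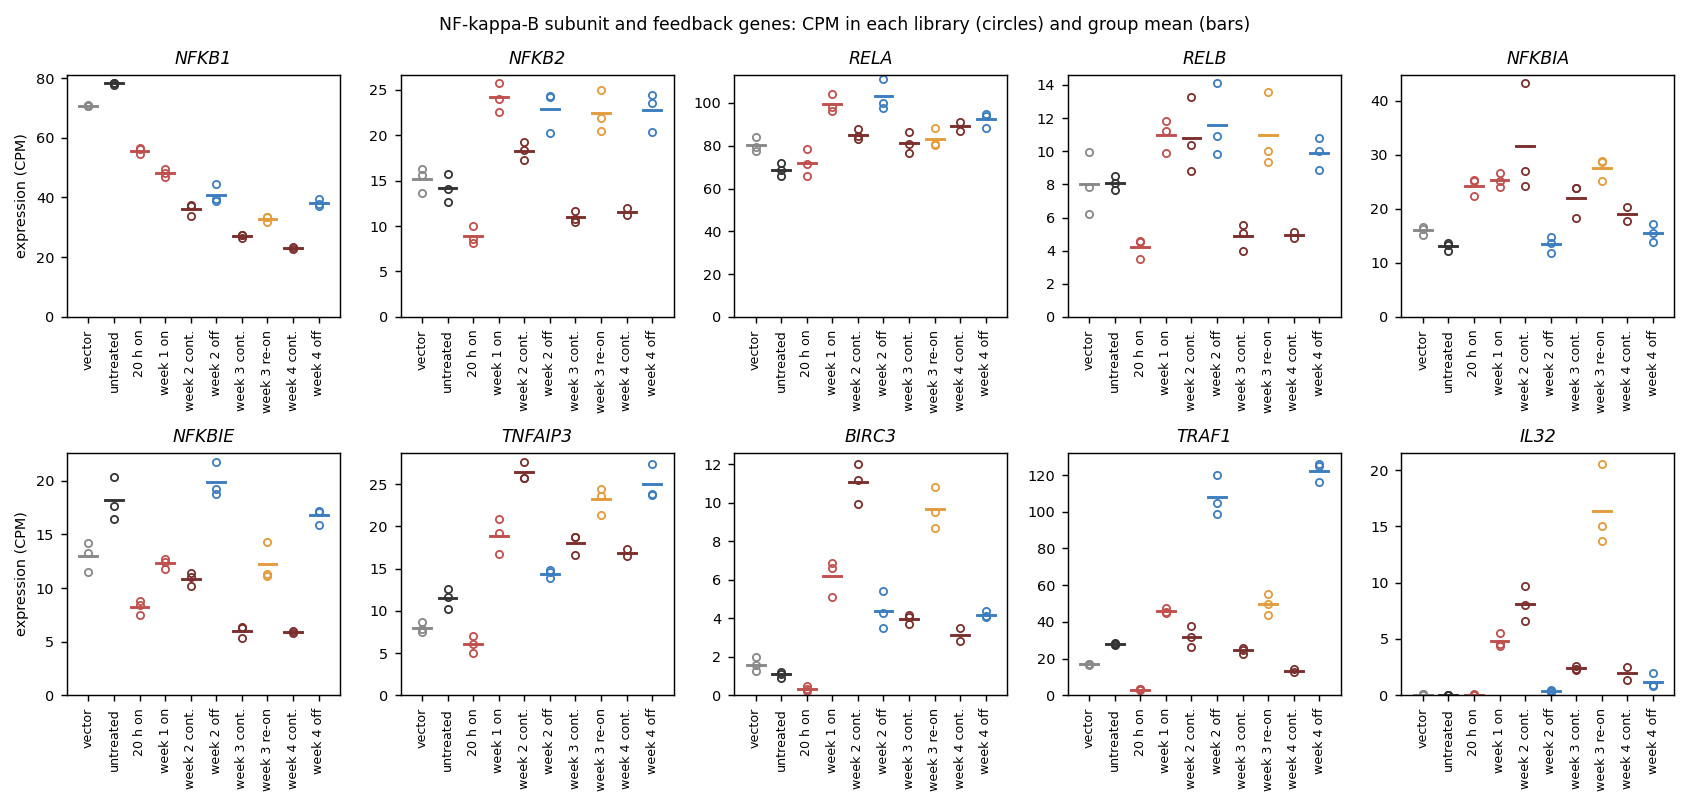
Expression of the 10 genes in each library (open circles, CPM, linear axes from 0) with group means (bars), for the 10 groups in the order of the schedule. TRAF1 was highest in the off-drug groups, NFKBIE in the groups without drug, and IL32 and BIRC3 in groups on drug, while NFKB1 was highest without drug at the start and lowest at week 4 continuous.

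Without drug, added BRAF-V600E came with higher TRAF1, TNFAIP3 and NFKBIE and lower RELA. Of the 10 genes, 3 were higher and 1 was lower at an adjusted p under 0.05 (Benjamini-Hochberg over all genes tested, the threshold used throughout), where 7.04% of all tested genes were higher and 9.92% lower. The median log2 change of the 10 was -0.05, against 0.00 over all genes. TRAF1, an adaptor that binds TNF receptor complexes together with BIRC proteins, was at 16.9, 16.4 and 17.0 CPM in the vector libraries and 27.4, 28.5 and 27.7 CPM in the untreated BRAF-V600E libraries. Those ranges did not overlap, and the log2 change was 0.73 (SE 0.10, adjusted p = 3.31e-06). TNFAIP3 changed by 0.53 (SE 0.11, adjusted p = 0.000679) and NFKBIE by 0.49 (SE 0.11, adjusted p = 0.00115). RELA was lower by a log2 change of -0.22 (SE 0.07, adjusted p = 0.0282); without any 1 of 4 of the 6 libraries, or with no filter on low counts, that call was lost (adjusted p up to 0.148 and 0.117).

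After 20 hours of LGX818 most of the genes had fallen. TRAF1 fell the furthest, BIRC3, NFKBIE, RELB, TNFAIP3, NFKB2 and NFKB1 fell as well, and NFKBIA alone among the 10 rose. That is 7 lower and 1 higher, where 25.2% of all tested genes were lower and 28.4% higher. The median log2 change of the 10 was -0.80, against 0.06 over all genes.

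Among the subunits, NFKB1 (chr4:102501329-102617302, plus strand, GENCODE 29), the precursor of p50, went from 77.8, 78.3 and 78.4 CPM untreated to 54.5, 56.6 and 56.1 CPM at 20 hours. The groups were far apart, with a log2 change of -0.49 (SE 0.06, adjusted p = 7.64e-08). NFKB2 (chr10:102394110-102402529, plus strand) had a log2 change of -0.67 (SE 0.11, adjusted p = 6.92e-06), to 8.91 ± 0.969 CPM (n = 3). RELB (chr19:45001430-45038198, plus strand) fell by 0.94 (SE 0.19, adjusted p = 7.59e-05), from 8.09 ± 0.398 to 4.20 ± 0.614 CPM (n = 3 each). RELA (chr11:65653596-65663094, minus strand), the main activating subunit of the canonical branch, was at 68.8 ± 2.87 and 71.9 ± 6.45 CPM and did not pass the test (log2 change 0.06, adjusted p = 0.478); it shares 9 exonic bases with AP001362.2 on the other strand.

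The inhibitors went in opposite directions. NFKBIA (chr14:35401511-35404749, minus strand), whose product IκBα is the rapidly resynthesised inhibitor, was at 12.2, 13.3 and 13.7 CPM untreated and at 22.3, 25.2 and 25.4 CPM at 20 hours. Every treated library was above every untreated one (log2 change 0.90, SE 0.15, adjusted p = 4.80e-06). NFKBIE (chr6:44258166-44265788, minus strand), which encodes the related inhibitor IκBε, went from 16.4, 20.4 and 17.7 CPM to 8.83, 7.45 and 8.38 CPM. Its groups did not overlap either, and its log2 change was -1.15 (SE 0.11, adjusted p = 2.98e-10). TNFAIP3 (chr6:137867188-137883312, plus strand) encodes A20, which removes and adds ubiquitin chains to shut off signalling. It fell by 0.92 (SE 0.11, adjusted p = 4.73e-08), to 6.03 ± 1.02 CPM (n = 3). TNFAIP3 shares 95 exonic bases with the antisense gene AL357060.1, which averaged 1.51 CPM, and whether counting used strand is not given in the sources used here.

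TRAF1 (chr9:120902393-120929173, minus strand) dropped to 2.68, 3.32 and 3.16 CPM at 20 hours. Compared with its untreated libraries at 27.4 to 28.5 CPM, that is a log2 change of -3.19 (SE 0.13, adjusted p = 2.60e-19). BIRC3 (chr11:102317450-102339403, plus strand) encodes cIAP2, a ubiquitin ligase of TNF receptor complexes. Its libraries were at 1.12, 1.23 and 0.909 CPM untreated and 0.502, 0.302 and 0.198 CPM at 20 hours, a fall of 1.71 (SE 0.32, adjusted p = 3.66e-05). IL32 (chr16:3065297-3082192, plus strand), a proinflammatory cytokine, was near 0 in both groups, with 1 count over the 3 untreated libraries (in replicate 3) and 3 counts over the 3 libraries at 20 hours. The ratio of the group levels was 3.41 with a 95% counting interval of 0.274 to 179, so no difference was detectable at this depth.

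By 7 days of drug most of the genes were above their untreated level. Of those that had fallen at 20 hours, NFKB2, RELB, TNFAIP3, BIRC3 and TRAF1 were now above it, and NFKB1 and NFKBIE were still below. NFKBIA, RELA and IL32, which had not fallen, were above it too. Against untreated cells 8 of the 10 were higher and 2 lower, where 27.5% of all tested genes were higher and 26.7% lower. The median log2 change of the 10 was 0.72, against 0.00 over all genes. Set against 20 hours, 8 were higher and 1 lower (28.6% and 29.1% of all genes), with a median of 1.41 against -0.02. The share of counts on mitochondrial genes was 14.9 to 16.4% untreated, 17.6 to 20.7% at 20 hours and 9.43 to 11.1% at week 1, and its part in these changes was not tested. The comparisons share libraries, so they are not independent of each other.

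TRAF1 was at 47.6, 45.1 and 45.5 CPM at week 1, above its untreated level and far above that at 20 hours. Its log2 change was 0.72 from untreated (SE 0.10, adjusted p = 2.61e-07) and 3.91 from 20 hours (SE 0.13, adjusted p = 8.55e-22). BIRC3 reached 6.59, 5.11 and 6.88 CPM, none of which came near the 20 hour or untreated libraries. Its log2 change was 2.49 from untreated (SE 0.20, adjusted p = 3.66e-12) and 4.20 from 20 hours (SE 0.25, adjusted p = 3.61e-15).

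IL32 appeared at week 1, with 4.35, 5.51 and 4.54 CPM. Over the group it had 442 counts, against the 1 count in untreated cells, a ratio of levels of 400 with a 95% counting interval of 71.3 to 15817 (adjusted p = 6.91e-14). Against the 3 counts at 20 hours the ratio was 117 (95% counting interval 39.9 to 571, adjusted p = 2.88e-13). These intervals cover counting error only, and they are wide because almost nothing was counted before week 1.

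TNFAIP3 was at 19.2, 16.7 and 20.9 CPM at week 1, above all untreated libraries (10.2 to 12.6 CPM), with a log2 change of 0.72 (SE 0.10, adjusted p = 6.51e-07). NFKBIA stayed at its 20 hour level, with 24.0, 25.2 and 26.6 CPM (log2 change from 20 hours 0.06, adjusted p = 0.755; from untreated 0.95, SE 0.14, adjusted p = 1.41e-06). NFKBIE recovered part of its fall, to 12.4, 11.8 and 12.7 CPM. It was higher than at 20 hours by 0.58 (SE 0.11, adjusted p = 4.52e-05) and still lower than in untreated cells, with a log2 change of -0.56 (SE 0.11, adjusted p = 3.91e-05).

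NFKB2 rose to 24.0, 25.8 and 22.6 CPM at week 1, above every untreated library (log2 change 0.77, SE 0.10, adjusted p = 1.76e-07). RELA rose to 96.2, 104 and 98.3 CPM (log2 change 0.53, SE 0.07, adjusted p = 1.66e-07). RELB, at 11.0 ± 1.00 CPM (n = 3), was higher than untreated by 0.44 (SE 0.17, adjusted p = 0.0279), a call lost without untreated replicate 2 or 3 or week 1 replicate 1 or 2 (adjusted p 0.0519 to 0.0997). Against 20 hours the rise of RELB was 1.38 (SE 0.18, adjusted p = 1.09e-07). NFKB1 was the exception among the subunits. It went on falling, to 49.6, 47.0 and 48.3 CPM, which is a log2 change of -0.69 from untreated (SE 0.06, adjusted p = 4.89e-11). Its further step of -0.21 from 20 hours (adjusted p = 0.00563) was lost without week 1 replicate 3 (adjusted p = 0.0598) or with no filter on low counts (adjusted p = 0.302).

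**Figure D2:**
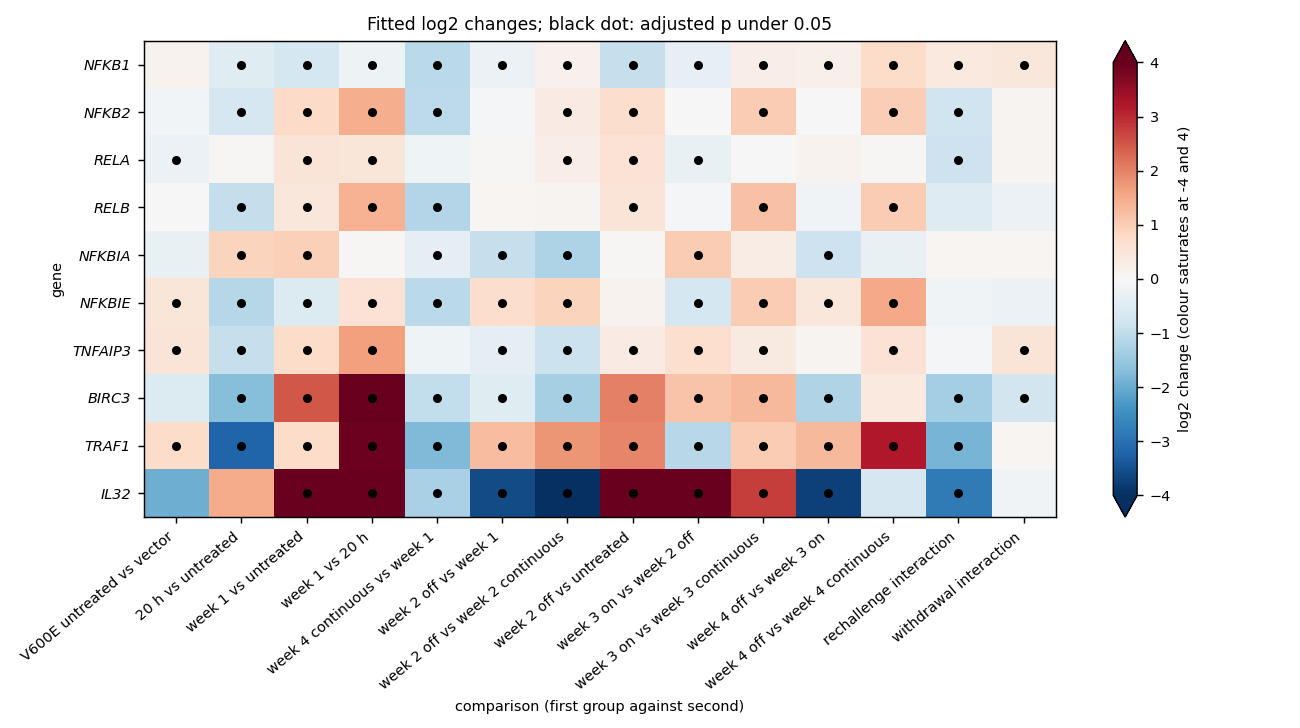
Fitted log2 changes of the 10 genes (rows) in 12 comparisons and 2 interactions (columns); red is higher and blue lower in the first group, and a dot marks an adjusted p under 0.05. At 20 hours the NFKBIA cell is the 1 red cell with a dot and 7 cells are blue with a dot; at week 4 continuous against week 1 all 8 dotted cells are blue. IL32 colours against untreated cells and 20 hours rest on 1 and 3 counts.

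Under continuous drug most of the genes fell after week 1. From week 1 to week 4 continuous 8 of the 10 genes fell and none rose, where 19.9% of all tested genes were lower and 21.1% higher. The median log2 change of the 10 was -1.06, against 0.01 over all genes. RELA and TNFAIP3 did not pass the test (log2 change -0.16 each, adjusted p = 0.114 and 0.270). RELA passed when only the compared groups were fitted (adjusted p = 0.0288).

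The decline was not the same in shape for all genes. TRAF1 went from 46.1 ± 1.35 CPM at week 1 to 32.0, 37.6 and 26.5 CPM at week 2, 26.0, 24.8 and 22.7 CPM at week 3, and 14.5 and 12.4 CPM at week 4 continuous. Each week was below the one before without overlap, and the week 4 libraries were below the untreated ones; the log2 change from week 1 to week 4 was -1.78 (SE 0.12, adjusted p = 2.55e-13). NFKB1 was at 37.3, 37.4 and 33.7 CPM at week 2, 26.4, 27.6 and 27.5 CPM at week 3, and 23.3 and 22.7 CPM at week 4. This too was a stepwise decline without overlap between weeks, and week 4 continuous was the lowest of the 10 groups (log2 change from week 1 -1.07, SE 0.07, adjusted p = 3.58e-13).

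BIRC3 and IL32 were higher at week 2 than at week 1 in every library, a step that was not tested, and lower again at weeks 3 and 4. BIRC3 was at 12, 11.2 and 9.94 CPM at week 2, 4.17, 3.69 and 4.05 CPM at week 3, and 3.51 and 2.79 CPM at week 4 continuous. Week 4 was below week 1 without overlap (log2 change -0.97, SE 0.19, adjusted p = 0.000144). IL32 was at 6.59, 8.02 and 9.68 CPM at week 2, 2.57, 2.28 and 2.33 CPM at week 3, and 2.53 and 1.38 CPM at week 4. It was lower at week 4 than at week 1 (log2 change -1.29, SE 0.27, adjusted p = 0.000272) but well above the untreated libraries. TNFAIP3 followed a similar course, at 26.4 ± 1.06 CPM at week 2, 18 ± 1.21 CPM at week 3 (n = 3 each) and 16.9 ± 0.533 CPM at week 4 (n = 2), where weeks 3 and 4 overlapped week 1.

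NFKB2, RELB and NFKBIE were lower at week 3 than at week 2 of continuous drug in every library, a step that was not tested. NFKB2 was at 18.3 ± 0.933 CPM at week 2, 11.0 ± 0.655 CPM at week 3 and 11.6 ± 0.564 CPM at week 4, with a log2 change from week 1 to week 4 of -1.05 (SE 0.12, adjusted p = 1.45e-08). RELB was at 8.81, 10.4 and 13.3 CPM at week 2 and at 3.97, 5.07 and 5.56 CPM at week 3, and its change from week 1 to week 4 was -1.16 (SE 0.20, adjusted p = 1.85e-05). NFKBIE was at 10.8 ± 0.614, 6.0 ± 0.552 and 5.89 ± 0.0922 CPM at the 3 weeks, a change of -1.07 from week 1 (SE 0.13, adjusted p = 5.38e-08). For all 3 genes the libraries of weeks 3 and 4 overlapped. NFKBIA varied most between libraries at week 2, with 27.1, 24.3 and 43.3 CPM; the highest is replicate 3, which stood apart over all genes too. At week 4 NFKBIA was at 20.4 and 17.8 CPM, and its fall from week 1 (log2 change -0.40, adjusted p = 0.0396) was lost with RLE factors (adjusted p = 0.050), with DESeq2 (0.0637), with a term for the replicate number (0.0673) and without any 1 of 4 libraries (0.0612 to 0.266).

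Summed fibroblast markers were higher at each later week of continuous drug, most of it COL1A1, a collagen chain (0.778 CPM untreated, 224 CPM at week 1 and 2179 CPM at week 4 continuous). POSTN, another gene of the list, went from 49.9 CPM untreated to 6.72 CPM at week 1. The 10 genes of that list summed to 104 to 108 CPM in untreated libraries and 316 to 323 CPM at week 1. Under continuous drug they summed to 1162 to 1226 CPM at week 2, 1800 to 1891 CPM at week 3 and 2385 to 2638 CPM at week 4. At week 4 continuous 9 of 10 were higher than at week 1, where 21.1% of all tested genes were. Off drug the 10 genes summed to 58.4 to 63.2 CPM, and at week 3 back on drug to 713 to 843 CPM. At week 2 off drug 5 of the 10 were nevertheless higher than untreated and 2 lower, where 31.2% and 28.8% of all tested genes were. PDGFRB went from 0.292 CPM untreated to 15.3 CPM at week 2 off drug. FAP went from 53.7 to 30.4 CPM and POSTN from 49.9 to 0.272 CPM. Immune cell markers summed to at most 12.2 CPM in any library, with MS4A1 at or near 0 in every group. They were higher off drug, at 5.87 to 6.16 CPM at week 2 and 9.01 to 12.2 CPM at week 4, than in any library on drug from week 1 on (at most 1.12 CPM). Most of that was LYZ, the lysozyme of myeloid cells, at 1.92 CPM untreated, 0.134 CPM at week 1, and 4.72 and 9.31 CPM in the off-drug groups. Only 2 of the 10 immune markers were tested. From week 1 to week 2 off drug 2 of these 2 rose, where 27.7% of all tested genes did. In the second withdrawal 1 of the 2 rose, where 23.1% of all tested genes did. Endothelial markers were at 28.2 to 30.2 CPM at week 4 off drug and 18.1 to 20.9 CPM at week 2 off drug, against 8.92 to 10.9 CPM untreated and at most 2.01 CPM in any group on drug. CDH5 had no count in the off-drug groups, while KDR was at 14.2 and 23.5 CPM, PECAM1 at 2.78 and 3.98 CPM and VWF at 2.0 and 1.51 CPM. In each of the withdrawals 3 of 4 tested endothelial markers rose, where 27.7% of all tested genes rose in the first and 23.1% in the second. The libraries came from a single melanoma line, so these markers are read here as genes and not as other cell types. In bulk RNA, a change in the number of cells that express a gene and a change in its RNA per cell cannot be told apart. The part of these genes in the results was not tested.

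Removing the drug for 7 days split the genes. TRAF1 and NFKBIE rose, while IL32, NFKBIA, BIRC3 and TNFAIP3 fell. From week 1 to week 2 off drug 2 of the 10 were higher and 5 lower, where 27.7% of all tested genes were higher and 26.8% lower, with a median log2 change of -0.16 against -0.01 over all genes. Against week 2 continuous, at the same week, 5 were higher and 4 lower (27.3% and 27.9% of all genes), with a median of 0.14 against -0.04.

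TRAF1 reached 98.7, 105 and 120 CPM at week 2 off drug, more than any library of week 1 or week 2 continuous. The log2 change was 1.23 from week 1 (SE 0.10, adjusted p = 3.61e-12) and 1.75 against week 2 continuous (SE 0.10, adjusted p = 1.39e-15). NFKBIE was at 21.8, 18.8 and 19.2 CPM, above all week 1 and week 2 continuous libraries and overlapping the untreated ones. It was higher by 0.69 than at week 1 (SE 0.11, adjusted p = 1.75e-06) and by 0.88 than at week 2 continuous (SE 0.11, adjusted p = 3.11e-08). BRAF was also higher in the off-drug groups (3232 and 3404 CPM), and its part in these levels was not tested.

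IL32 fell to 0.503, 0.393 and 0.313 CPM, far below every library on drug from week 1 on. The log2 change was -3.58 from week 1 (SE 0.32, adjusted p = 4.27e-11) and -4.33 against week 2 continuous (SE 0.31, adjusted p = 2.50e-13). It did not return to the untreated level, since 32 counts stood against 1 (ratio 32.7, 95% counting interval 5.46 to 1331, adjusted p = 9.58e-05). NFKBIA returned to 14.8, 13.7 and 11.9 CPM, which overlapped the untreated libraries (log2 change 0.04 against untreated, adjusted p = 0.819). From week 1 its change was -0.91 (SE 0.14, adjusted p = 3.31e-06) and against week 2 continuous -1.23 (SE 0.14, adjusted p = 1.54e-08).

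BIRC3 was at 4.28, 3.47 and 5.40 CPM at week 2 off drug. That was lower than at week 2 continuous (log2 change -1.33, SE 0.16, adjusted p = 3.65e-08) and, less firmly, than at week 1 (-0.49, SE 0.17, adjusted p = 0.0133). Without week 1 replicate 3 or week 2 off drug replicate 2 that second call was lost (adjusted p = 0.0663 and 0.0798). TNFAIP3 was at 13.9, 14.6 and 14.8 CPM, lower than at week 1 (-0.39, SE 0.10, adjusted p = 0.00189) and than at week 2 continuous (-0.87, SE 0.10, adjusted p = 1.47e-08). Both genes stayed above untreated cells, BIRC3 by 2.0 (SE 0.21, adjusted p = 8.14e-10) and TNFAIP3 by 0.33 (SE 0.11, adjusted p = 0.00794). The TNFAIP3 call was lost without untreated replicate 2 or without week 2 off drug replicate 2 or 3 (adjusted p 0.0565 to 0.0617).

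The subunits moved little on withdrawal. NFKB2 (22.9 ± 2.34 CPM), RELA (103 ± 7.25 CPM) and RELB (11.6 ± 2.23 CPM, n = 3 each) did not pass the test against week 1 (log2 changes -0.08, 0.05 and 0.08, adjusted p = 0.534, 0.597 and 0.716). NFKB1, at 38.8, 39.4 and 44.6 CPM, was lower than at week 1 (log2 change -0.24, adjusted p = 0.00192). Against week 2 continuous, NFKB1 was higher by 0.18 (adjusted p = 0.0169), a call lost without replicate 3 of either group (adjusted p = 0.141 and 0.201), without the libraries that stood apart (0.424), with no filter on low counts (0.136) and in a fit of the compared groups alone (0.150). NFKB2 and RELA were higher than at week 2 continuous by 0.32 and 0.27 (adjusted p = 0.00857 and 0.00159), NFKB2 not without week 2 off drug replicate 2 (adjusted p = 0.0599). RELB was at 0.10 in that comparison (adjusted p = 0.653), and without the libraries that stood apart at 0.38 (adjusted p = 0.0466).

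Levels at week 2 off drug differed from those of cells never treated. Against untreated cells 7 of the 10 genes were higher and 1 lower, where 31.2% of all tested genes were higher and 28.8% lower, with a median log2 change of 0.55 against 0.02 over all genes. TRAF1 stood at a log2 change of 1.95 (SE 0.10, adjusted p = 9.11e-17), NFKB2 0.69 (SE 0.10, adjusted p = 1.12e-06) and RELA 0.58 (SE 0.07, adjusted p = 2.93e-08). RELB was higher by 0.52 (adjusted p = 0.00923), not without week 2 off drug replicate 2 (adjusted p = 0.170). NFKB1 was the gene that was lower (log2 change -0.93, SE 0.06, adjusted p = 6.34e-14), and NFKBIA and NFKBIE did not pass the test.

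**Figure D3:**
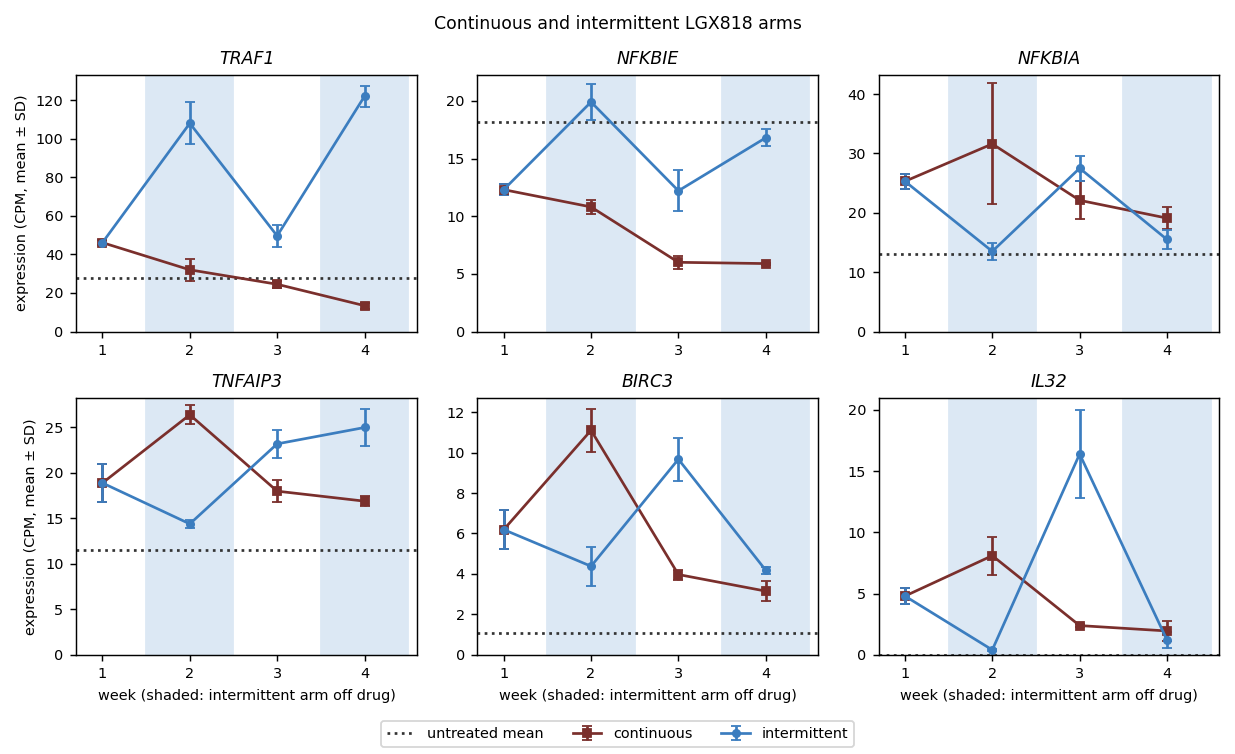
Mean expression with SD (CPM, linear axes from 0) of 6 of the genes at weeks 1 to 4 under continuous drug (squares) and in the intermittent arm (circles), which share the week 1 group; shading marks the intermittent arm's weeks off drug and the dotted line the untreated mean. TRAF1 and NFKBIE peak in the shaded weeks, within the intermittent arm IL32, BIRC3 and NFKBIA are highest at week 3 back on drug, and TNFAIP3 is low in the first shaded week but not in the second.

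Rechallenge, the second exposure to drug, came with higher IL32, BIRC3, NFKBIA and TNFAIP3 and with lower TRAF1, NFKBIE, RELA and NFKB1. From week 2 off drug to week 3 back on drug 4 of the 10 genes rose and 4 fell, where 27.8% of all tested genes were higher and 28.5% lower, with a median log2 change of -0.05 against 0.02. IL32 rose to 20.5, 13.7 and 15 CPM, its highest level in any group (log2 change 5.35, SE 0.30, adjusted p = 8.37e-16). BIRC3 rose to 8.68, 9.54 and 10.8 CPM (1.14, SE 0.16, adjusted p = 5.85e-07), NFKBIA to 28.8, 25.1 and 28.7 CPM (1.03, SE 0.14, adjusted p = 3.78e-07) and TNFAIP3 to 23.6, 21.4 and 24.4 CPM (0.68, SE 0.10, adjusted p = 1.14e-06). In each of these 4 genes every rechallenged library was above every library at week 2 off drug.

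TRAF1 fell back to 43.8, 49.6 and 55.3 CPM, overlapping its week 1 libraries (log2 change from week 2 off drug -1.12, SE 0.10, adjusted p = 2.39e-11). NFKBIE fell to 14.3, 11.3 and 11.1 CPM, which also overlapped week 1 (-0.70, SE 0.11, adjusted p = 1.27e-06). RELA fell to 83.2 ± 4.39 CPM (-0.31, SE 0.07, adjusted p = 0.000494) and NFKB1 to 32.9 ± 0.895 CPM (-0.32, SE 0.06, adjusted p = 8.54e-05). NFKB2 and RELB did not pass the test (-0.03 and -0.08, adjusted p = 0.840 and 0.718), and RELB did without the libraries that stood apart (-0.37, adjusted p = 0.0479).

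Levels in rechallenged cells differed from those in cells kept on drug for 3 weeks. Against week 3 continuous 8 of the 10 genes were higher and none lower, where 14% of all tested genes were higher and 14.3% lower, with a median log2 change of 1.02 against 0.00 over all genes. IL32 had a log2 change of 2.78 (SE 0.23, adjusted p = 4.41e-11), BIRC3 one of 1.29 (SE 0.16, adjusted p = 2.39e-07) and TRAF1 one of 1.02 (SE 0.10, adjusted p = 1.84e-09). Of the non-canonical pair, NFKB2 was higher by 1.03 (SE 0.10, adjusted p = 4.23e-09), at 25.0, 20.5 and 21.9 CPM against 10.5, 11.7 and 10.8 CPM. RELB was higher by 1.16 (SE 0.17, adjusted p = 3.87e-06), at 13.6, 9.36 and 10 CPM against 3.97 to 5.56 CPM. NFKBIE (1.02, adjusted p = 1.85e-08), TNFAIP3 (0.36, adjusted p = 0.00561) and NFKB1 (0.27, adjusted p = 0.00134) completed the 8. RELA (0.03, adjusted p = 0.777) and NFKBIA (0.31, adjusted p = 0.0912) did not pass, and NFKBIA did with no filter on low counts (adjusted p = 0.0238).

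In the second withdrawal TRAF1, NFKBIE and NFKB1 rose and IL32, BIRC3 and NFKBIA fell. From week 3 back on drug to week 4 off drug 3 of the 10 were higher and 3 lower, where 23.1% of all tested genes were higher and 22.3% lower, with a median log2 change of 0.07 against -0.02. TRAF1 rose to 116, 125 and 126 CPM, the highest level of its 10 groups though overlapping week 2 off drug (log2 change 1.30, SE 0.10, adjusted p = 1.14e-12). NFKBIE rose to 17.2, 15.9 and 17.1 CPM (0.45, SE 0.11, adjusted p = 0.000683). NFKB1 rose by 0.21 (adjusted p = 0.00681), a call lost with no filter on low counts and in a fit of the compared groups alone (adjusted p = 0.0851 and 0.0553).

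IL32 fell to 0.886, 1.95 and 0.801 CPM (log2 change -3.74, SE 0.25, adjusted p = 7.02e-14), BIRC3 to 4.12, 4.37 and 4.04 CPM (-1.21, SE 0.16, adjusted p = 2.64e-07) and NFKBIA to 15.5, 17.2 and 13.9 CPM (-0.82, SE 0.14, adjusted p = 1.41e-05). No off-drug library of these 3 genes reached the rechallenged libraries. TNFAIP3 stayed at 23.7, 27.4 and 23.9 CPM and did not pass the test (0.11, adjusted p = 0.377). RELA, at 0.15 (adjusted p = 0.0845), passed with RLE factors (0.0423) and DESeq2 (0.0237), without week 3 back on drug replicate 1 (0.0314) or week 4 off drug replicate 3 (0.0440), and without the libraries that stood apart (0.0271).

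Against week 4 continuous, 6 of the 10 genes were higher at week 4 off drug and none lower, where 26.1% of all tested genes were higher and 25.1% lower, with a median log2 change of 0.65 against -0.01. TRAF1 differed most, with a log2 change of 3.19 (SE 0.13, adjusted p = 2.46e-19), followed by NFKBIE at 1.51 (SE 0.13, adjusted p = 2.32e-11), RELB at 1.01 (SE 0.20, adjusted p = 8.18e-05) and NFKB2 at 0.97 (SE 0.12, adjusted p = 4.39e-08). NFKB1 was higher by 0.73 (SE 0.07, adjusted p = 8.13e-10) and TNFAIP3 by 0.57 (SE 0.11, adjusted p = 9.16e-05). BIRC3, NFKBIA, RELA and IL32 did not pass. IL32 was at -0.68 (adjusted p = 0.0645), and passed without week 4 continuous replicate 2 or week 4 off drug replicate 2 (adjusted p = 0.0150 and 0.00228) and with no filter on low counts (adjusted p = 0.0284). NFKBIA, at -0.30 (adjusted p = 0.116), passed in a fit of the compared groups alone (adjusted p = 0.0206).

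Whether the second week on drug changed the genes as the first did was tested as an interaction, in which the step from untreated to week 1 is subtracted from the rechallenge step. The interaction was above 0 for 1 of the 10 genes and below 0 for 5, where it was above 0 for 23.3% of all tested genes and below 0 for 25%, with a median of -0.66 against -0.02 over all genes. TRAF1 had risen in the first week on drug and fell in the second, so its interaction was -1.85 (SE 0.14, adjusted p = 1.50e-12). RELA had likewise risen and then fallen (-0.84, SE 0.10, adjusted p = 2.95e-08). NFKB2 had risen and then kept its level (-0.80, SE 0.14, adjusted p = 2.79e-05). BIRC3 rose less on the log2 scale the second time (-1.35, SE 0.26, adjusted p = 6.63e-05). Its means went from 1.09 to 6.19 CPM in the first exposure and from 4.38 to 9.67 CPM in the second. NFKB1 fell less the second time (0.38, SE 0.09, adjusted p = 0.000737).

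IL32 had an interaction of -2.84 (SE 1.09, adjusted p = 0.0320), which rests on the 1 untreated count. It moved to -4.79 without untreated replicate 3, which holds that count, and was lost without untreated replicate 1 or 2 or week 2 off drug replicate 1 (adjusted p 0.0590 to 0.119). RELB, at -0.52 (adjusted p = 0.0701), passed with RLE factors (0.0444), with no filter on low counts (0.0192), in a fit of the compared groups alone (0.0414), without the libraries that stood apart (-0.81, adjusted p = 0.00132) and without any 1 of 3 libraries (0.0124 to 0.0479). For NFKBIA, NFKBIE and TNFAIP3 no difference between the exposures passed the test (0.08, -0.14 and -0.04, adjusted p = 0.799, 0.467 and 0.868). Their standard errors were 0.20, 0.15 and 0.14 on the log2 scale.

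The second withdrawal was set against the first in the same way. Of the 10 genes 2 had an interaction above 0 and 1 below 0, where 7.6% of all tested genes were above and 9.5% below, with a median of 0.08 against -0.01. TNFAIP3, which fell in the first withdrawal and not in the second, had an interaction of 0.50 (SE 0.14, adjusted p = 0.0123). NFKB1, which fell in the first and rose in the second, had one of 0.45 (SE 0.09, adjusted p = 0.000423). BIRC3 fell further the second time (-0.72, SE 0.23, adjusted p = 0.0301), but the call was lost without any 1 of 6 libraries (adjusted p 0.0551 to 0.158) and without the libraries that stood apart (0.0746).

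Across the 10 group means of log2 CPM, the genes fell into a few shapes. NFKB2 and RELB were the most alike (Pearson r = 0.96, Spearman rho = 0.94), followed by TNFAIP3 and BIRC3 (r = 0.92, rho = 0.85) and BIRC3 and IL32 (r = 0.89, rho = 0.87). NFKB2 and TRAF1 also had a high r (0.88, rho = 0.85). The inhibitors NFKBIA and NFKBIE had an r of -0.53 (rho = -0.61), and NFKB1 and IL32 one of -0.72 (rho = -0.71). These are descriptions over 10 group means from 1 time course of 1 cell line, in which groups share a treatment history, and carry no test.

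**Figure D4:**
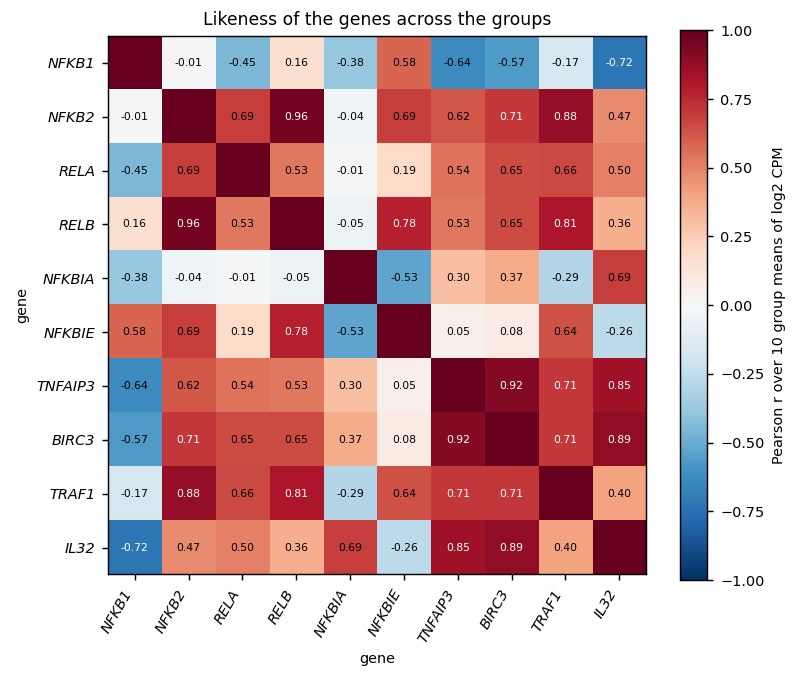
Pearson r between each pair of the 10 genes over the 10 group means of log2 CPM (colour and printed value). NFKB2 and RELB stand at 0.96, TNFAIP3, BIRC3 and IL32 form a block from 0.85 to 0.92, and NFKB1 is below 0 with 7 of the other 9.

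Among 10636 other genes with a mean of at least 5 CPM, those with the most similar course were named by Pearson r over the same 10 means. For BIRC3 they were DOCK5 (r = 0.993) and NCEH1 (0.986), for IL32 CARD10 (0.985) and BCL7C (0.983), and for TRAF1 KHDRBS3 (0.979) and SERPINB8 (0.976). For TNFAIP3 they were IQCB1 (0.973) and PABPC4 (0.970), for NFKBIE PSMB7 (0.981) and ARFGEF3 (0.967), and for NFKBIA MAP3K3 (0.939) and ZZZ3 (0.935). The subunit NFKB1 was closest to SLC39A8 (0.982), NFKB2 to DUSP14 (0.970) and FADD (0.955), RELA to TMEM115 (0.980) and SDF2 (0.969), and RELB to ATXN2L (0.941) and XBP1 (0.937).

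The rest of the pathway was read from 7 lists with 105 genes, of which 94 were tested. After 20 hours 23 of the 94 rose and 33 fell (28.4% and 25.2% of all tested genes), and in the list of other target genes 3 of 31 rose and 14 fell, with a median log2 change of -0.66 against 0.06 over all genes. In that list CXCL8, a neutrophil-attracting chemokine, went from 9.60 to 0.180 CPM and IER3, an early response gene, from 204 to 7.88 CPM, while SOD2, the mitochondrial superoxide dismutase, rose from 96.5 to 151 CPM. At week 1, 44 of the 94 were higher than untreated and 20 lower (27.5% and 26.7% of all tested genes), and 15 of the 31 target genes were higher and 7 lower. Among receptors 8 of 12 were higher and 3 lower. TNFRSF21, a death receptor, went from 28.4 to 4.77 CPM. The higher ones included TNFRSF12A, the receptor of the ligand TWEAK and an activator of the non-canonical branch, which went from 21.6 CPM untreated to 4.39 CPM at 20 hours and 208 CPM at week 1. MAP3K14, the kinase NIK of the same branch as NFKB2 and RELB, went from 5.65 to 24.0 CPM (log2 change 2.09, adjusted p = 5.32e-18). CARD10, a scaffold that links receptors to IκB kinase, rose from 1.84 to 19.9 CPM.

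From week 1 to week 4 continuous, where 8 of the 10 members fell, 39 of the 94 other genes rose and 27 fell (21.1% and 19.9% of all tested genes). MAP3K14 was among those that fell (24.0 to 12.5 CPM), as were TNFRSF12A (208 to 94.9 CPM), BIRC2, the close relative of BIRC3 (114 to 64.7 CPM), and CXCL8 (43.2 to 10.5 CPM). Others went the opposite way, among them NFKBIZ (5.04 to 34.3 CPM) and BCL3 (9.69 to 25.4 CPM), both nuclear IκB proteins, and IL6 (2.25 to 11.0 CPM). At week 2 off drug against week 2 continuous 34 were higher and 32 lower (27.3% and 27.9% of all tested genes). IL1B, the cytokine interleukin 1β, was at 20.2 against 1.27 CPM and LCN2, a secreted iron-binding protein, at 23.6 against 0.0237 CPM. IL6 was at 0.174 against 6.48 CPM and GADD45B, a stress-response gene, at 10.5 against 37.2 CPM.

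At week 3 back on drug against week 3 continuous, 24 of the 94 other genes were higher and 24 lower, where 8 and 0 of the 10 members and 14% and 14.3% of all tested genes were. The higher ones included MAP3K14 (29.9 against 15.2 CPM), TNFRSF12A (253 against 109 CPM), BIRC2 (172 against 85.8 CPM) and CARD10 (24.1 against 13 CPM). The lower ones included BCL3 (7.49 against 20.1 CPM), NFKBIZ (11.0 against 19.1 CPM) and the prostaglandin synthase PTGS2 (3.35 against 13.2 CPM). At week 4 off drug against week 4 continuous 36 were higher and 31 lower (26.1% and 25.1% of all tested genes), with IL1B at 68.7 against 1.97 CPM and TLR4, the receptor of bacterial lipopolysaccharide, at 155 against 42.5 CPM. In the comparison of the first and second exposure, 14 of the 94 had an interaction above 0 and 46 below 0 (23.3% and 25% of all tested genes), and in that of the withdrawals 6 and 24 (7.6% and 9.5%). In vector cells against untreated cells, 5 of the 94 were higher with BRAF-V600E and 21 lower (7.04% and 9.92% of all tested genes).

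**Figure D5:**
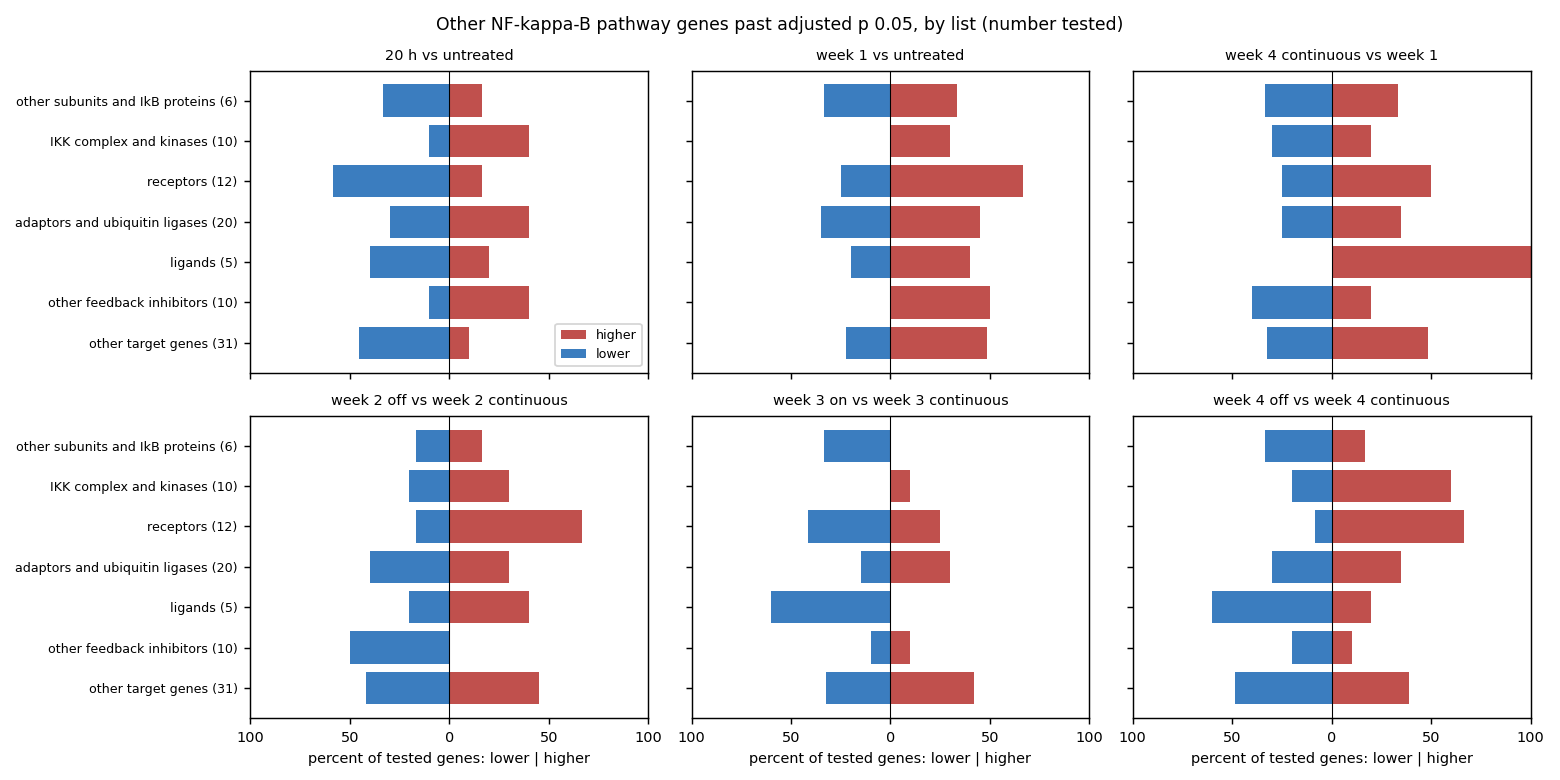
Percent of tested genes in each of 7 pathway lists (number tested in brackets) that were higher (red, to the right) or lower (blue, to the left) at an adjusted p under 0.05 in 6 comparisons. At 20 hours 14 of 31 other target genes were lower and 3 higher; at week 1 it was 7 lower and 15 higher. The lists were chosen with results of these data known, so the bars are a description.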

How the data were processed

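The authors deposited a table of unnormalized counts, integers for every gene and each of 29 libraries. According to the submitters' processing notes, GRCh38 was used together with these tools: HTSeq 0.6.1, SAMtools 0.1.18, HISAT2 2.0.3 and Trimmomatic 0.32. The annotation release and the strand setting are not given in the sources used here. Gene positions came from GENCODE 29, which matched 57055 of 60675 identifiers.

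The test was edgeR's quasi-likelihood F test (edgeR 4.0.16, R 4.3.3) after filterByExpr and TMM scaling, in a single model of the 10 groups, for 12 comparisons and 2 interactions. P-values were adjusted by Benjamini-Hochberg over the 20494 genes tested in each comparison, at a threshold of 0.05. A standard error is the size of the log2 change divided by the root of its F value. Levels are CPM with TMM-scaled library sizes, as mean ± SD. The model was also run on counts simulated under its own assumptions, with changes placed at week 1, and the outcome is not reported here. Such counts hold no libraries that stand apart, so the run does not bear on those. Groups with 1 to 3 counts of IL32 are given as ratios with 95% intervals for counting error.

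Alternatives were DESeq2 1.42.0, RLE factors, no filter on low counts, models of only the groups compared, a replicate block, and dropping each library in turn. A further one, dropping the 4 libraries that differed from both others of their group by a chi-square per gene above 15, was chosen after seeing the data. The members and lists were chosen with earlier results of these data known. The rule for names took all 10 members in every comparison and, per list and comparison, up to 2 called genes with the largest rise and up to 2 with the largest fall among those with a mean of at least 1 CPM. Of these, only part is printed. For likeness it took the 2 genes with the highest Pearson r, of which 1 is not reported here.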

Additional observations from a re-analysis of the deposited data

Results flagged for a closer look

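For 6 of the genes the second week on drug changed expression differently from the first, by the test of that difference over all 4 groups involved. The difference was above 0 for 1 and below 0 for 5, where 23.3% of all tested genes were above and 25% below. On the log2 scale the difference was 0.38 for NFKB1 (adjusted p = 7.37e-04), -0.80 for NFKB2 (2.79e-05), -0.84 for RELA (2.95e-08), -1.35 for BIRC3 (6.63e-05), -1.85 for TRAF1 (1.50e-12) and -2.84 for IL32 (0.0320), all from edgeR's quasi-likelihood test. TRAF1 and RELA changed direction between the exposures. The exposures started from different levels. TRAF1 went from 27.9 to 46.1 CPM in the first and from 108 to 49.6 CPM in the second. NFKB2 went from 14.2 to 24.2 CPM and then from 22.9 to 22.4 CPM. For 3 genes the second withdrawal differed from the first in the same test, by 0.45 for NFKB1 (4.23e-04), 0.50 for TNFAIP3 (0.0123) and -0.72 for BIRC3 (0.0301). Over all tested genes 7.6% were above 0 and 9.5% below in that test. The IL32 call between the exposures and the BIRC3 call between the withdrawals were lost without single libraries, as given above. NFKB1 and BIRC3 were among both sets.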

How the results depend on the processing

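No count of called genes or called members moved by more than 1.5 times from the reported count under any alternative run. With the replicate block the 1 member call lost was NFKBIA at week 4 continuous against week 1 (-0.37, adjusted p = 0.0673), and 139 of 140 member results kept their direction and side of the threshold. The replicate numbers did not pair the samples: over 126 pairs of libraries with the same number the median correlation of deviations was -0.001, and 12 of 29 libraries correlated best with their own number. Of 140 member results, 137 were kept with DESeq2 and 137 with RLE factors, and 133 with no filter on low counts. Fits of the compared groups alone kept 131 of 137. Without the libraries that stood apart 70 of 80 were kept, and 4 that had not passed the test changed sign: NFKB2 from week 1 to week 2 off drug (0.01), RELA at week 3 back on drug against continuous (-0.01), RELB from week 3 to week 4 of the intermittent arm (0.03) and NFKBIA between the exposures (-0.04).

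Leaving out 1 library at a time kept 874 of 940 member results, and the 28 that changed sign had not passed the test. RELB ranged from -0.14 to 0.20 for BRAF-V600E against vector, -0.12 to 0.16 from week 1 to week 2 off drug, -0.09 to 0.25 for week 2 off drug against continuous, -0.26 to 0.11 for rechallenge and -0.23 to 0.05 for the second withdrawal. NFKB2 ranged from -0.11 to 0.04 for rechallenge and -0.02 to 0.12 for the second withdrawal, RELA from 0.00 to 0.13 at 20 hours and -0.04 to 0.09 from week 1 to week 2 off drug. NFKBIA ranged from -0.03 to 0.09 for week 2 off drug against untreated, TNFAIP3 from -0.13 to 0.03 between the exposures and IL32 from -0.67 to 0.10 between the withdrawals. The cause was not tested. Depth limits IL32, whose untreated and 20 hour groups held 1 and 3 counts. Its fitted changes from them moved with 1 library (8.19 to 10.14 at week 1 and 4.61 to 6.55 at week 2 off drug, without untreated replicate 3).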

Other observations

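Several ligands that start NF-κB signalling were at or near 0 throughout; the genes named here were chosen from the pathway lists after their values were seen. TNF averaged at most 0.0472 CPM in any group, LTB 0.0132 CPM, IL1A 0.155 CPM and IL18 0.0393 CPM. The receptor TLR2 had no count in any library. IL1B was the ligand with the widest range: 0.301 CPM in untreated cells, 0.168 CPM at week 1, 20.2 CPM at week 2 off drug, 0.477 CPM at week 3 back on drug and 68.7 CPM at week 4 off drug. Its receptor IL1R1 was at 1.10 ± 0.260 CPM in untreated cells and 6.26 ± 1.08 CPM at week 1, and at 37.8 ± 3.76 and 30.4 ± 2.86 CPM in the groups off drug (n = 3 each). The TNF family ligand TNFSF12 (TWEAK) ran the other way, at 6.88 CPM at week 1, 2.24 CPM at week 2 off drug, 7.19 CPM at week 3 back on drug and 3.94 CPM at week 4 off drug.

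TLR3, a sensor of double-stranded RNA, was at 3.13 CPM untreated, 4.15 CPM at 20 hours, 9.59 CPM at week 1, 17.9 CPM at week 3 continuous, and 2.91 and 3.09 CPM in the off-drug groups. TLR4 was at 21.9 CPM at week 1, 176 CPM at week 2 off drug, 43.9 CPM at week 3 back on drug and 155 CPM at week 4 off drug. MALT1, a protease of the CARD10 complex, was at 20.4 CPM at week 1, 76.0 CPM at week 2 off drug, 29.3 CPM at week 3 back on drug and 67.1 CPM at week 4 off drug, while CARD10 itself was at 19.9, 5.93, 24.1 and 8.11 CPM in the same groups. MALT1 and CARD10 thus had opposite courses in the intermittent arm, as NFKBIA and NFKBIE did. BCL10, another gene of their list, was at 19.0, 26.5, 18.9 and 20.8 CPM in those groups.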
